A study of Mus musculus with 18 samples.

Results

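The cornified envelope genes described here are 10 mouse genes, Sprr1a, Sprr1b, Sprr2b, Sprr3, Lce1a1, Lce1e, Crct1, Ivl, Sbsn and Ly6g6c, out of 20229 genes measured on arrays during the reprogramming of fibroblasts to induced pluripotent stem cells (iPSC). They were chosen by their log2 levels on these arrays in an earlier analysis, so their levels and differences are given as a description, with no test. Each gene is represented by its probe set with the highest mean level. All 10 were measured, and no filter on low values was applied. The arrays covered 9 groups of 2, from mouse embryonic fibroblasts in an Oct4-GFP and Rosa26-M2rtTA transgenic background. The fibroblasts came from E13.5 embryos made wholly of iPSC by tetraploid complementation, and they carried doxycycline-inducible reprogramming factors. Day 0 is the fibroblasts at passage 4 in feeder medium before induction. Days 1, 3, 5, 7, 11 and 15 are cells in embryonic stem cell medium with 1 µg/ml doxycycline and 50 µg/ml vitamin C. Day 18 is the cells that remained 3 days after both were withdrawn. The iPSC group is 1 established line kept in the same basal medium plus Gsk3 and Mek inhibitors, and the labels do not say whether its arrays had feeder cells. The factors, vitamin C and the new medium all separate days 1 to 15 from day 0 and cannot be told apart. At day 18, removal of the drugs, the later day and the survival of some cells cannot be told apart.

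The cornified envelope is the protein shell that replaces the plasma membrane of keratinocytes as they die to form the outer layer of the skin and of other stratified epithelia. Transglutaminases cross-link involucrin, loricrin, small proline-rich (SPRR) and late cornified envelope (LCE) proteins under the membrane, on a scaffold of desmosomal proteins, and lipids are then attached to the outside. Most of the precursors are encoded next to each other in the epidermal differentiation complex. Fibroblasts and pluripotent cells are not known as makers of this structure.

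RefSeq promoter entries of the mouse assembly GRCm38.p6 were matched for 9 of the 10 genes. The 250 bases before the annotated start are printed for 6 of them, because these 6 represent the 3 early courses described below. Capitals mark TGANTCA, the core of the site bound by AP-1 (Fos and Jun) proteins, and TATAAA, the TATA box. In the Lce1 promoters capitals mark instead the longest run of letters that both share. The first pair, with maxima on days 5 and 15, lies on the minus strand at chr3:92485882-92486131 and chr3:92438780-92439029.
Sprr1a: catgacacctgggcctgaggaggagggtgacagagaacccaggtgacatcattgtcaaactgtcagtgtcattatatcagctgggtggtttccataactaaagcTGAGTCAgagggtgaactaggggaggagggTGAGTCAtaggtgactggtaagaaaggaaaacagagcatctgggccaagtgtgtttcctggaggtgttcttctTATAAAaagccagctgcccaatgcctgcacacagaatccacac
Sprr1b: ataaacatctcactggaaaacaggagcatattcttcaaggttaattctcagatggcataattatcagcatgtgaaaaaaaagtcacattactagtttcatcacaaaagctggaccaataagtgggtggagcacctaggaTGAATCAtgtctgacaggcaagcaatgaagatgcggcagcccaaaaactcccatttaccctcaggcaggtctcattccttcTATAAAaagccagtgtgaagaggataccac
The second pair, highest on day 1, lies at chr3:92316455-92316704 on the plus strand and at chr3:92573736-92573985 on the minus strand.
Sprr2b: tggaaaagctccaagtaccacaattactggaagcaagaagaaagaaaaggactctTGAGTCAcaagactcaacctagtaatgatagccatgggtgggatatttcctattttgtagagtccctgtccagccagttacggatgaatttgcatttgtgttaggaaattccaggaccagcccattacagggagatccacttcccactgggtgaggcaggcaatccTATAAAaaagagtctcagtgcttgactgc
Ivl: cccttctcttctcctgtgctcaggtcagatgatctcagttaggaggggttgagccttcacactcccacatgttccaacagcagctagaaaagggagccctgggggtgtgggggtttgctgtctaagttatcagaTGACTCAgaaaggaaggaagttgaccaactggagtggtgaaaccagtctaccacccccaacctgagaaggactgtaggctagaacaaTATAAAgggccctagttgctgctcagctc
The third pair, raised on days 5 and 7, lies on the minus strand at chr3:92648308-92648557 and chr3:92709075-92709324.
Lce1a1: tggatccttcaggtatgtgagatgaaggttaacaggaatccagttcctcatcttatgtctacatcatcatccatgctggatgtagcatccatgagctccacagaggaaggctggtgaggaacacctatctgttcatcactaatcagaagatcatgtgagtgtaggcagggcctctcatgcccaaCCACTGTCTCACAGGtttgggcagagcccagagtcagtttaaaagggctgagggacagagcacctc
Lce1e: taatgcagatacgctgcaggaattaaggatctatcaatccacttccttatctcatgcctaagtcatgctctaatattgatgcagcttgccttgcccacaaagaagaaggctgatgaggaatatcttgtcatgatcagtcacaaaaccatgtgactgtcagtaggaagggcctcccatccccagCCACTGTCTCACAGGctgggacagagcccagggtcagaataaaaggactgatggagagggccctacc

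With both strands searched, TGANTCA was found in 5 of the 9 promoters, against 6.75% of 32851 mouse promoter windows of the same length. Sprr1a holds it at 146 and at 116 bases before the start, Sprr1b at 111, Sprr2b at 195, Ivl at 116 and Sbsn at 119. The windows of Sprr3, Lce1a1, Lce1e and Ly6g6c do not hold these letters. TATAAA was found in 6 of the 9 (the 4 Sprr genes, Ivl and Ly6g6c), against 12.4% of all windows. CACCC, a core bound by Klf proteins, was present in 6 of 9 against 52.0%. GGAAGT, an Ets-type core, was present in 4 of 9 against 19.7%. AACCGGTT, a Grhl-type site, was present in 0 of 9 against 0.116%. Overlaps were not removed: the CACCC match (as GGGTG) at 119 bases in Sprr1a overlaps the AP-1 letters at 116. The run shared by Lce1a1 and Lce1e, CCACTGTCTCACAGG, has 15 letters and starts 66 and 67 bases before the start. It was picked after the sequences were seen. It occurs in 5 of the 32851 windows, all of Lce1 genes: Lce1a1, Lce1a2, Lce1b, Lce1e and Lce1h. These matches describe letters and do not show binding.

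Levels are log2 values after quantile normalization of the arrays, and a difference of 1 is a doubling of the measured signal. The 95th percentile of 1075 olfactory receptor genes, which few cells outside the nose express, was 5.32 and is used as the background. A difference whose lower level is under it may understate the change. Replicate arrays correlated over genes at 0.997 to 0.998, and the day 18 arrays at 0.993. Between the day 18 arrays 264 genes differed by over 2-fold, against 5 to 16 genes in the other groups. The model pools the spread over groups, so its standard errors (SE) are too small for genes that varied more on day 18. Nothing in the labels says that the 2 arrays of a group came from separate cultures, so the spread and the p-values may be technical. In these bulk samples fewer cells of a type and less RNA per cell cannot be told apart.

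The members' median difference from day 0 was largest on day 5, smaller on day 11 and larger again on day 15, but the members differed: on day 11 Ly6g6c was 5.08, Sprr1b 2.25 and Sprr2b 2.11 above day 0. The median difference of the 10 genes from day 0 was 0.87 on day 1 and 1.42 on day 3, reached 3.21 on day 5, and was 2.33 on day 7 and 0.67 on day 11. It was 2.44 on day 15, 0.21 on day 18 and -0.05 in iPSC. The median over all genes stayed between -0.03 and 0.13 in these comparisons. A difference of at least 1 above day 0 was seen for 3 members on day 1 (7.62% of all genes), 6 on day 3 (8.68%) and 9 on day 5 (9.50%). It was seen for 9 on day 7 (10.1%) and 3 on day 11 (9.89%). The numbers for day 15, day 18 and iPSC were 7 (10.0%), 3 (8.88%) and 0 (10.1%). The rule used these comparisons, so nothing is read from the shares. The members did not share 1 course, and 5 courses are described in turn below.

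**Figure D1:**
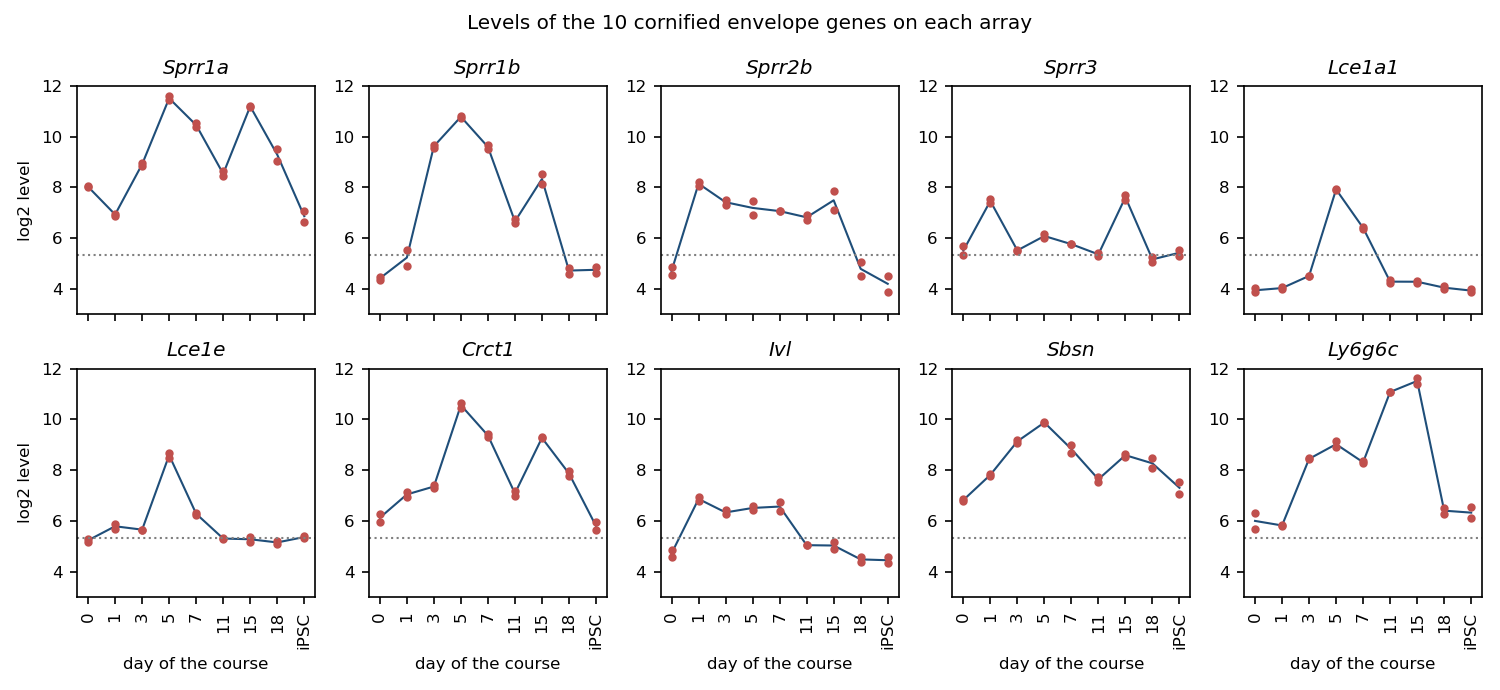
Log2 level (vertical axis) of each cornified envelope gene on every array (red points, 2 per group) over the 9 groups (horizontal axis, day of the course and iPSC), with the group mean as a blue line and the background of 5.32 as a dotted line. Sprr1a, Sprr1b, Crct1 and Sbsn peak on day 5, dip on day 11 and are higher on day 15, Lce1a1 and Lce1e peak on day 5 alone, Sprr2b and Ivl are highest on day 1, and Ly6g6c is highest on days 11 and 15.

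Sprr1b, a small proline-rich protein that serves as a bridge between other envelope proteins, spanned the widest range. Its arrays measured 4.46 and 4.37 on day 0, 5.55 and 4.92 on day 1, 9.68 and 9.57 on day 3, 10.76 and 10.82 on day 5, 9.68 and 9.52 on day 7, 6.58 and 6.75 on day 11, 8.14 and 8.54 on day 15, 4.61 and 4.84 on day 18, and 4.87 and 4.65 in iPSC. The 6 arrays of days 3, 5 and 7 were the highest, day 15 stood between them and day 11, and day 0, day 18 and iPSC lay under background. The day 1 mean of 5.24 was under background too, with 1 array above background and 1 under it. The difference from day 0 was 6.37 (SE 0.18, 82.7-fold) on day 5 and 3.92 (15.1-fold) on day 15. In the order of the group means only days 3 and 7, and iPSC and day 18, overlapped with their neighbour.

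Sprr1a, its close relative, was above background in the fibroblasts and lower on day 1 than on day 0. It measured 8.01 and 8.04 on day 0, 6.90 and 6.97 on day 1, 8.86 and 8.97 on day 3, 11.59 and 11.44 on day 5, 10.53 and 10.39 on day 7, 8.63 and 8.45 on day 11, 11.23 and 11.17 on day 15, 9.06 and 9.53 on day 18, and 7.08 and 6.66 in iPSC. Day 1 and iPSC overlapped and were the lowest groups, and days 5 and 15 the highest, without overlap between them. The difference from day 0 was -1.09 on day 1 and 3.49 on day 5, then 0.51 on day 11 and 3.17 on day 15 (SE 0.15 each). From day 11 to day 15 the level differed by 2.66, 6.31-fold. Sprr1a stayed 1.27 above day 0 on day 18, where Sprr1b differed from day 0 by 0.31.

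Crct1 and Sbsn followed the same 2-peaked course. Crct1 encodes a small cysteine-rich protein of the complex, and its group mean was 6.12 ± 0.23 (SD, n = 2) on day 0 and 10.56 ± 0.15 on day 5. It was 7.08 ± 0.14 on day 11 and 9.27 ± 0.03 on day 15, then 7.87 ± 0.15 on day 18 and 5.80 ± 0.25 in iPSC. The day 5 difference from day 0 was 4.44 (SE 0.14, 21.7-fold), and 3.21 of it arose between days 3 and 5. Suprabasin, the product of Sbsn, is secreted by suprabasal keratinocytes. Sbsn went from 6.82 ± 0.08 on day 0 to 9.13 ± 0.09 on day 3 and 9.88 ± 0.01 on day 5, was 7.64 ± 0.13 on day 11 and 8.59 ± 0.09 on day 15, and was still 8.27 ± 0.28 on day 18. No neighbouring groups of Sbsn overlapped in the order of its means. A second probe set of Sbsn had a mean level of 7.60 over all arrays, against 8.25 for the one used, and its course is not given here.

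Lce1a1 and Lce1e, late cornified envelope genes whose proteins are added to the envelope late in its assembly in skin, were raised over a narrow window. Lce1a1 measured 3.86 and 4.03 on day 0, 4.09 and 3.98 on day 1, 4.52 and 4.51 on day 3, 7.94 and 7.91 on day 5, 6.44 and 6.38 on day 7, 4.22 and 4.36 on day 11, 4.24 and 4.33 on day 15, 4.00 and 4.11 on day 18, and 3.87 and 4.00 in iPSC. Only its day 5 and day 7 arrays were above background. Lce1e measured 5.29 and 5.18 on day 0, 5.70 and 5.88 on day 1, 5.66 and 5.65 on day 3, 8.68 and 8.49 on day 5, 6.32 and 6.24 on day 7, 5.33 and 5.27 on day 11, 5.38 and 5.17 on day 15, 5.19 and 5.11 on day 18, and 5.33 and 5.40 in iPSC. From day 3 to day 5 Lce1a1 differed by 3.41 (SE 0.08, 10.6-fold) and Lce1e by 2.93 (SE 0.09, 7.65-fold). Neither gene took part in the second rise: day 15 minus day 11 was -0.00 for Lce1a1 and -0.03 for Lce1e. Day 15 lay 3.64 below day 5 for Lce1a1, the comparison of these days being added after the data were seen.

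Sprr2b and Ivl were highest 1 day after induction. Sprr2b, another small proline-rich gene, measured 4.87 and 4.55 on day 0, 8.07 and 8.23 on day 1, 7.52 and 7.32 on day 3, 7.46 and 6.93 on day 5, 7.06 and 7.08 on day 7, 6.72 and 6.93 on day 11, 7.13 and 7.86 on day 15, 5.06 and 4.52 on day 18, and 3.88 and 4.53 in iPSC. All 12 arrays from day 1 to day 15 were above those of day 0, day 18 and iPSC, and days 3, 5, 7 and 15 overlapped along the order. The day 1 difference from day 0 was 3.44 (SE 0.26, 10.8-fold). Ivl, which encodes involucrin, an early scaffold of the envelope, measured 4.58 and 4.86 on day 0, 6.79 and 6.93 on day 1, 6.25 and 6.41 on day 3, 6.57 and 6.44 on day 5, 6.73 and 6.39 on day 7, 5.04 and 5.04 on day 11, 5.18 and 4.87 on day 15, 4.39 and 4.57 on day 18, and 4.57 and 4.33 in iPSC. It was above background only on days 1 to 7 and differed from day 0 by 2.15 (SE 0.14, 4.42-fold) on day 1. From day 7 to day 11 it differed by -1.52, and on day 15 it was 0.31 above day 0.

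Sprr3, a small proline-rich gene known from the oesophagus, had 2 separate peaks. It measured 5.33 and 5.69 on day 0, 7.40 and 7.54 on day 1, 5.51 and 5.53 on day 3, 6.17 and 6.01 on day 5, 5.77 and 5.77 on day 7, 5.30 and 5.43 on day 11, 7.72 and 7.51 on day 15, 5.07 and 5.27 on day 18, and 5.32 and 5.54 in iPSC. The arrays of days 1 and 15 overlapped and stood above all others. Sprr3 was 1.95 (SE 0.12) above day 0 on day 1 and 0.58 on day 5, and 2.10 (4.30-fold) on day 15. A second probe set of Sprr3 had a mean level of 5.81 over all arrays, against 5.99 for the one used, and its course is not given here. Among the 10 members it was the gene under a difference of 1 on day 5.

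Ly6g6c, a gene of the Ly6/uPAR family of small cell-surface proteins, lies outside the complex and was highest late. It measured 5.68 and 6.32 on day 0, 5.84 and 5.80 on day 1, 8.42 and 8.46 on day 3, 9.14 and 8.90 on day 5, 8.35 and 8.26 on day 7, 11.07 and 11.09 on day 11, 11.41 and 11.62 on day 15, 6.28 and 6.52 on day 18, and 6.11 and 6.54 in iPSC. Days 11 and 15 were above all other groups, and day 0, day 1, day 18 and iPSC formed a low set with overlaps. From day 7 to day 11, when 6 members were at least 1 lower (1.25% of all genes), Ly6g6c differed by 2.77 (SE 0.18, 6.83-fold). It differed from day 0 by 5.52 (45.8-fold) on day 15.

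After withdrawal the mean of each member was lower, but Lce1a1, Lce1e and Ivl were already under background on day 15. From day 15 to day 18 the median difference of the 10 genes was -1.65, against -0.06 over all genes, and 6 members were at least 1 lower (4.07% of all genes). Ly6g6c differed by -5.11 (34.6-fold lower), Sprr1b by -3.61, Sprr2b by -2.70, Sprr3 by -2.45, Sprr1a by -1.90 and Crct1 by -1.40. Ivl differed by -0.55, Sbsn by -0.32, Lce1a1 by -0.23 and Lce1e by -0.13, and the Lce1e arrays of these days overlapped. Without the first day 18 array the median was -1.48 and without the second -1.82. From day 18 to iPSC, Sprr1a differed by -2.42 and Crct1 by -2.07, and these were the members at least 1 lower there (2.87% of all genes).

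Correlations over the 9 group means describe how alike the courses are, on points that share the same arrays and with no test. They were 0.94 between Lce1a1 and Lce1e, 0.93 between Sprr1a and Crct1, 0.90 between Sprr1b and Sbsn, and 0.81 between Sprr2b and Ivl. The correlation was -0.01 between Sprr3 and Lce1a1 and 0.03 between Ivl and Ly6g6c. Among 2889 other genes with a highest mean above background and a range of at least 2, those most like Sprr1a were the kallikrein proteases Klk7 (r = 0.97) and Klk6 (0.95) and the protease inhibitor Spink5 (0.94). Crct1 was most like Klk6 (0.98) and Spink5 (0.95). Klk7 went from 5.78 on day 0 to 8.99 on day 5, 6.36 on day 11 and 8.78 on day 15. Lce1a1 was most like Slitrk4 (0.99) and Scin (0.98), followed by Kprp (0.98) and Lce3c (0.97). Lce1e was most like Lce3e (0.98) and Lce1c (0.97). Ly6g6c was most like Cyp4f39 (0.98), Pkp1 (0.96) and Tgm3 (0.96). Sprr2b was most like Faap24 (0.98), Ivl most like Ctrl and Cd36 (0.97 and 0.96), Sprr3 most like Ifi209 (0.92), Sprr1b most like Rnu3a and Sox21 (0.97 and 0.96), and Sbsn most like Krt16 (0.92).

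In the genome, 8 of the 10 members lie on chromosome 3 in 1 run of 46 RefSeq genes, while Sbsn lies on chromosome 7 and Ly6g6c on chromosome 17. Of the run, 37 genes were measured, 29 of them no members. These neighbours were tested with limma, and a gene is called where its adjusted p is under 0.05 and its log2 difference from day 0 is at least 1. On day 5, 13 of the 29 were called higher (9.50% of all genes) and 0 lower (9.75%, and 0 of the 29 at an unadjusted p under 0.05), with a median difference of 0.95 against 0.13 over all genes. On day 1 only 2 were called higher (7.62%), on day 7 there were 3 (10.1%), on day 15 there was 1 (10.0%) and on days 3, 11 and 18 there were 0 (8.68%, 9.89% and 8.87%). At an unadjusted p under 0.05 without a minimum size, 10, 2 and 0 were higher on these 3 days. Lower calls were 1 on day 15 (8.82% of all genes) and 1 on day 18 (8.64%). The 13 higher on day 5 were Sprr2d, Kprp and 11 Lce genes, of which Lce1d (4.68 on day 5) and Lce1g (4.09) stayed under background in every group. Among the neighbours not called on day 5, Sprr2e to Sprr2k, Smcp, Lce1a2, Lce3b and Lce3f also stayed under background in every group. Near-identical copies in the Sprr2 and Lce1 families could share signal on an array, so a value of 1 copy is uncertain.

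A wider set of 78 measured genes related to the envelope or to its gene complex, none of them members, was counted in lists. The lists were other Sprr genes, other Lce genes, other genes of the complex listed as structural, scaffold and cross-linking genes, and lipid and processing genes. Not all of them encode envelope proteins: Pglyrp3, for example, is a peptidoglycan recognition protein gene. The 78 include all 29 neighbours counted above, so the counts overlap and are not separate results. Of these 78, 9 were called higher than day 0 on day 1 (7.62% of all genes), and 19 on day 3 (8.68%). The number was 39 on day 5 (9.50%), 19 on day 7 (10.1%) and 15 on day 11 (9.89%). It was 27 on day 15 (10.0%), then 8 on day 18 (8.87%) and 5 in iPSC (10.1%). Lower calls numbered 0 on days 1 and 3 (6.55% and 8.94%), 2 on day 5 (9.75%), 1 on day 15 (8.82%) and 2 on day 18 (8.64%). There was 1 each on day 7, on day 11 and in iPSC. In these groups 9.86%, 9.64% and 9.81% of all genes were at least 1 lower than day 0, with no test. At an unadjusted limma p under 0.05 without a minimum size, 7 were lower on day 1 and 2 on day 3. The median difference was 1.01 on day 5 and 0.16 on day 15.

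Between neighbouring groups from day 1 to day 15, 12 to 15 of the 78 related genes were called in each step. From day 1 to day 3, 12 rose (0.722% of all genes) and 3 fell (2.31%). From day 3 to day 5, 14 rose (0.791%) and 0 fell (0.361%). From day 5 to day 7, 0 rose (0.638%) and 12 fell (0.386%), and from day 7 to day 11 there were 8 that rose (1.82%) and 5 that fell (1.23%). From day 11 to day 15, 13 rose (1.66%) and 0 fell (0.247%). Where limma called 0, the genes at an unadjusted p under 0.05 without a minimum size were 6 lower from day 3 to day 5, 4 higher from day 5 to day 7 and 4 lower from day 11 to day 15. From day 18 to iPSC 1 rose (1.57%) and 6 fell (2.84%).

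**Figure D2:**
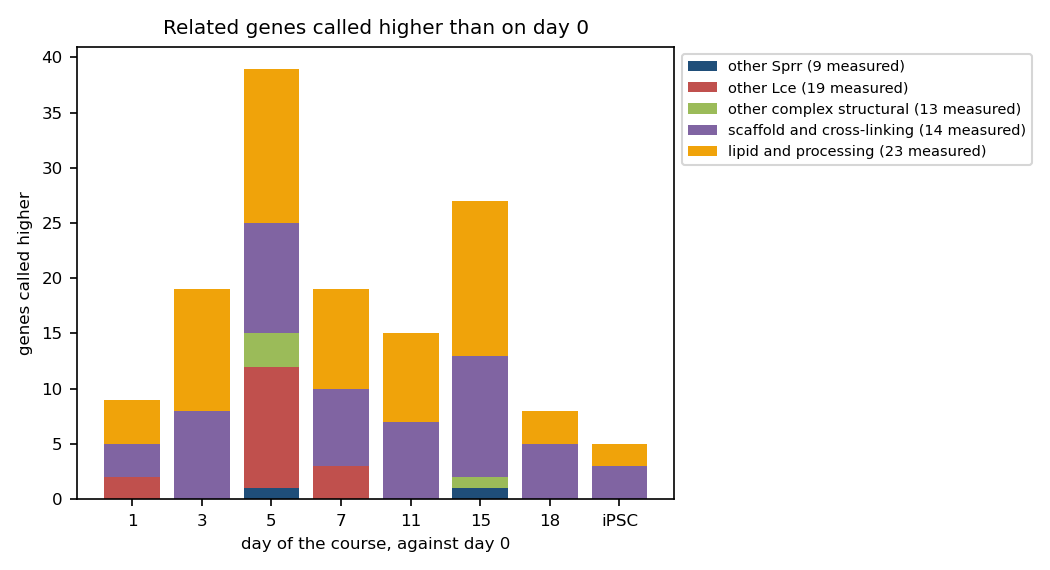
Number of related genes (vertical axis) called higher than on day 0 by limma on each later day and in iPSC (horizontal axis), stacked by list, none of them among the 10 members. The total reaches 39 on day 5, falls to 15 on day 11 and is 27 on day 15, and the Lce genes, 11 of 19 on day 5, are absent on day 15.

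Among the structural precursors most calls fell on day 5. Of 19 other Lce genes 11 were called higher on day 5 (9.50% of all genes), 3 on day 7 (10.1%) and 0 on day 15 (10.0%). At an unadjusted limma p under 0.05, 0 were higher on day 15 as well. Lce3e rose from 2.68 ± 0.02 (SD, n = 2) to 5.83 ± 0.10 on day 5, by 3.15 (SE 0.12, limma adjusted p = 3.66e-11), and was 2.65 ± 0.07 on day 15. Lce1c rose by 2.85 (adjusted p = 1.42e-08) and Lce3c by 2.81 (adjusted p = 1.21e-07). Lce1h rose on day 1 instead, from 7.83 ± 0.04 to 10.51 ± 0.05 (2.68, adjusted p = 5.48e-09), and on day 5 its difference was 0.83. Of the 5 genes that share the 15 letters printed in capitals above, Lce1b rose by 1.56 on day 5, and Lce1a2 stayed under background with group means from 3.50 to 3.79. Of 9 other Sprr genes 1 was called on day 5 (9.50% of all genes). It was Sprr2d, from 5.19 ± 0.05 to 7.25 ± 0.00 (2.06, limma adjusted p = 1.04e-09), and it was higher on day 15 too, by 1.69. In 8 of the 9 the highest group mean was on day 5 (15.3% of all genes), but it was above background in only 2 of these 8. For a gene under background in every group, a missing call does not show that it stayed unchanged.

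Of 13 other genes of the complex listed as structural, 3 were called higher on day 5 (9.50% of all genes). Kprp, a keratinocyte proline-rich protein gene, rose by 2.58 (adjusted p = 1.44e-09) to 7.22 ± 0.34 and was 4.74 ± 0.12 on day 15. Pglyrp3, a peptidoglycan recognition protein gene, rose by 1.07 on day 5 and by 2.12 (adjusted p = 5.27e-10) on day 15. Rptn, which encodes repetin, rose by 1.15 (adjusted p = 9.19e-06) to a level of 4.72, under background. Without the second day 5 array that difference was 0.91, below the threshold. Lor, the gene of loricrin, the major protein of the epidermal envelope, was not called on day 5: it was 5.12 ± 0.37 on day 0 and 5.95 ± 0.11 on day 5 (difference 0.83, adjusted p = 0.000418). Flg, the filaggrin gene, was not analysed here.

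Many scaffold, cross-linking and lipid genes were called higher on both days. Of 14 scaffold and cross-linking genes 10 were called higher on day 5 (9.50% of all genes) and 11 on day 15 (10.0%), with medians of 1.50 and 2.12. On day 18, 5 were still called higher than day 0 (8.87%), and in iPSC 3 (10.1%). Tgm1, the membrane-bound transglutaminase that builds the envelope, rose from 5.49 ± 0.07 on day 0 to 8.18 ± 0.18 on day 5. On day 15 it was 10.34 ± 0.01 (4.85, SE 0.16, limma adjusted p = 1.20e-11). It was still 9.39 ± 0.49 on day 18 and 7.99 ± 0.08 in iPSC. Tgm3, another transglutaminase, rose by 1.28 on day 5 and by 1.68 on day 15. Of the plakins, Ppl (periplakin) rose by 1.50 on day 5 and by 3.46 on day 15, while Evpl (envoplakin) differed by 0.44 and 0.91 and was not called. Dsp, the desmoplakin gene, was higher by 2.88 on day 1 already and by 6.12 (adjusted p = 7.64e-15) on day 15. Perp, a desmosomal membrane protein gene, was 7.43 ± 0.00 on day 0, 10.43 ± 0.04 on day 1 already, and 11.32 ± 0.06 on day 3. It was 11.62 ± 0.03 on day 15, higher than day 0 by 4.19. Dsp and Perp were at 10.44 and 9.97 on day 18, and at 8.14 and 8.74 in iPSC. Krtdap, a keratinocyte differentiation-associated gene, was 4.65 ± 0.00 on day 0 and 8.26 ± 0.02 on day 5, then 9.51 ± 0.12 on day 15 and 4.64 ± 0.03 on day 18. Dmkn, the dermokine gene, rose by 2.16 on day 5 and by 2.55 on day 15.

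Of 23 lipid and processing genes 14 were called higher on each of these days (9.50% and 10.0% of all genes), 12 of them on both. Lower calls were 2 on day 5 (9.75%) and 0 on day 15 (8.82%). At an unadjusted limma p under 0.05 without a minimum size, 3 were lower on day 15. The protease gene St14 (matriptase) rose by 4.85 on day 15 (adjusted p = 9.63e-13). The fatty acid hydroxylase gene Cyp4f39 rose by 4.40 (adjusted p = 1.95e-13) and the lipoxygenase gene Alox12b by 3.81 (adjusted p = 1.65e-11) on that day. Prss8, a protease gene acting with St14, rose by 4.01 on day 15 and stayed 4.10 higher on day 18.

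Between days 5 and 15 themselves, 15 of the 78 related genes were lower on day 15 (2.54% of all genes) and 13 were higher (5.13%). The Lce list had 11 lower and 0 higher (also 0 at an unadjusted limma p under 0.05), the scaffold and cross-linking list 1 lower and 6 higher, and the lipid and processing list 1 lower and 6 higher. The gene lower among the scaffold list was Cnfn, cornifelin, at 10.59 ± 0.09 on day 5 and 7.64 ± 0.34 on day 15 (-2.95, adjusted p = 3.18e-09). Of the genes called against day 0, 24 were called on both days, 15 on day 5 and not day 15, and 3 (Klk11, Lipm and Pkp3) on day 15 and not day 5. After withdrawal 21 of the 78 fell from day 15 to day 18 and 0 rose (4.07% and 4.67% of all genes). At an unadjusted limma p under 0.05 without a minimum size, 2 were higher. Krtdap fell by 4.87, Cyp4f39 by 4.10 and Alox12b by 3.53.

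**Figure D3:**
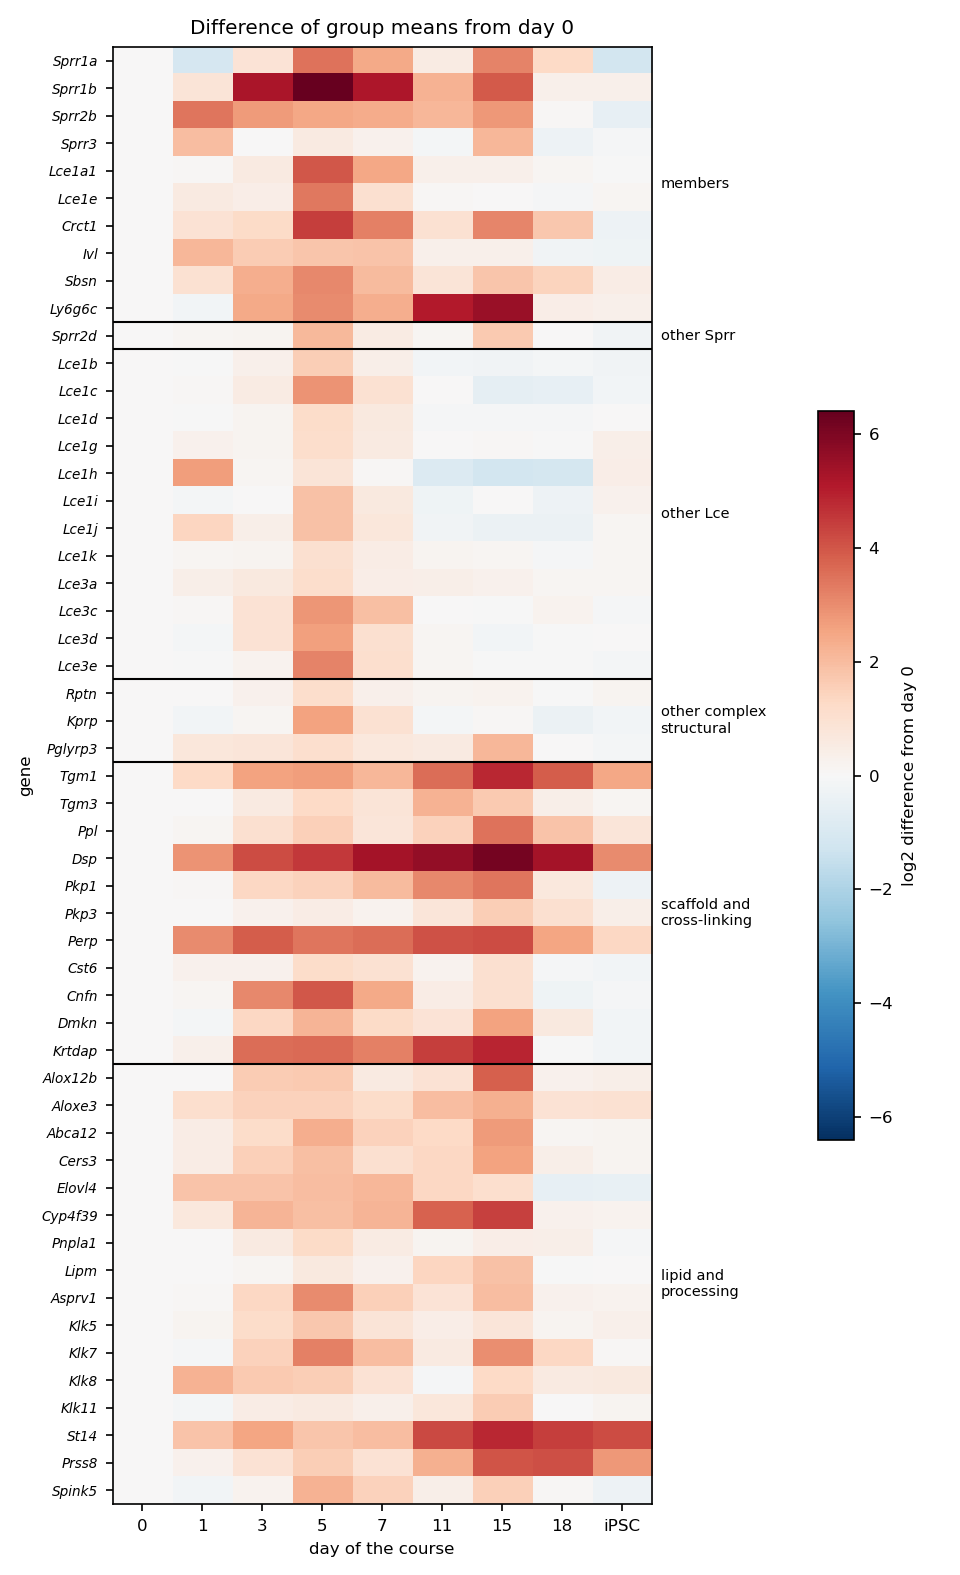
Log2 difference of group means from day 0 (colour, red higher) for the 10 members and for each related gene called higher than day 0 in at least 1 group (rows, in blocks by list) over the groups (columns). The Lce block is red on day 5 and pale by day 11, and the scaffold block is red from day 3 to day 15.

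Keratins of stratified layers were counted beside the members. Of 14, 7 were called higher on day 5 (9.50% of all genes) and 9 on day 15 (10.0%). Lower calls were 0 on both days (9.75% and 8.82%), also at an unadjusted limma p under 0.05. Krt14, a basal layer keratin, rose from 5.02 ± 0.25 to 10.11 ± 0.05 on day 5 (5.09, adjusted p = 1.24e-12) and was 10.12 ± 0.07 on day 15. Its partner Krt5 differed by 1.00 on day 5 with no call and rose by 2.11 on day 15. Krt17, Krt6a and Krt16, keratins of stressed epidermis and appendages, rose by 3.96, 2.77 and 3.43 on day 5. The suprabasal keratin gene Krt1 rose by 1.22 on day 5 and by 1.63 on day 15 to 5.95 ± 0.18, and Krt10 differed by 0.74 and 0.26 with no call. Trp63, the gene of p63, the defining factor of stratified epithelium, was 5.78 ± 0.02 on day 0 and between 5.53 and 6.02 in the other groups, and was not called in any comparison with day 0. Against the background of 5.32, the group means of the suprabasal markers ran from 4.63 to 5.95 for Lor and from 5.58 to 6.32 for Krt10. The part of keratinocyte-type cells in the members' levels was not tested.

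Among 30 regulators of barrier genes calls against day 0 went both ways from day 1 on. On day 1, 4 were higher (7.62% of all genes) and 8 lower (6.55%), and on day 3 the numbers were 3 (8.68%) and 6 (8.94%). On day 5, 4 were higher (9.50%) and 6 lower (9.75%), and on day 15, 14 were higher (10.0%) and 2 lower (8.82%). Zfp750 rose by 1.92 on day 5 and by 3.78 on day 15, and Grhl3, a factor of barrier formation, by 2.00 and 3.27. Klf4 rose by 1.59 on day 5 and by 1.48 on day 15. Klf4 is also 1 of the usual reprogramming factors, and whether its probe set reads a transgene was not tested. Ehf differed by 0.71 on day 5 and rose by 4.32 (adjusted p = 3.89e-12) on day 15, and it fell by 4.35 to day 18. Elf3 and Tfap2c rose by 4.31 and 3.49 on day 15 and were not called on day 5. Their largest called differences from day 0 came after day 15, at 5.21 in iPSC for Elf3 and 4.81 on day 18 for Tfap2c. Ovol1 differed by 0.50 on day 5 and rose by 1.07 on day 15.

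Among 12 other Ly6 and uPAR family genes, 3 were higher (9.50% of all genes) and 1 lower (9.75%) on day 5, and 4 were higher (10.0%) and 1 lower (8.82%) on day 15. Being 1 of 12, the lower calls are near the share over all genes. Slurp1, a secreted family member of skin, rose by 3.63 on day 5 (adjusted p = 3.32e-11) and differed by 0.98 on day 15. Lypd3 rose by 1.27 on day 5 and by 2.55 on day 15. Ly6g6e, a relative of Ly6g6c, rose by 3.14 in iPSC, where Ly6g6c differed from day 0 by 0.33. Lynx1 fell by 2.56 on day 5. Of 13 S100 genes of the complex 0 were called higher (4 at an unadjusted limma p under 0.05) and 2 lower on day 5, and 3 were higher and 1 lower on day 15, and the lower calls (2 and 1 of 13) are also near the shares over all genes. S100a14 rose by 3.50 and S100a3 by 3.41 on day 15, S100a6 fell by 1.89 on day 5 and S100a4 by 1.03 on day 15.

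Markers of other cell types moved over the same days. The summed level of 10 fibroblast markers (log2 of the sum over genes) was 14.57 to 14.60 on day 0. It was 11.27 to 11.28 on day 5 and 10.04 to 10.06 on day 15. On day 18 it was 11.60 to 12.44, and in iPSC 13.18 to 13.34. All 10 were called lower on days 5, 15 and 18 (9.75%, 8.82% and 8.64% of all genes). The sum of 10 markers of simple epithelium, such as Krt8 and Cdh1, was 9.05 to 9.08 on day 0, 10.89 to 10.96 on day 5, 12.87 to 12.98 on day 11, 14.23 to 14.29 on day 15 and 14.04 to 14.29 on day 18. Of these 10, 4 were called higher on day 5 (9.50% of all genes), when 2 of the 10 lay under background. All 10 were called higher on days 11, 15 and 18 (9.89%, 10.0% and 8.87%). The sum of 10 pluripotency markers was 8.38 to 8.41 on day 0 and 10.14 to 10.24 on day 5. It was 12.60 to 12.64 on day 15 and 14.86 to 14.89 in iPSC. Of the 10 pluripotency markers, 3 were called higher on day 5 (9.50% of all genes) and 10 on day 15 (10.0%). The sum of the 14 layer keratins was 8.91 to 9.07 on day 0, 11.59 to 11.73 on day 5, 11.39 to 11.59 on day 11, 12.48 to 12.56 on day 15 and 10.44 to 10.70 on day 18. Of 10 trophoblast markers 0 were called higher on day 5 (9.50% of all genes) and 7 on day 15 (10.0%). At an unadjusted limma p under 0.05, 4 trophoblast markers were higher on day 5. Of 9 macrophage markers 6 were called lower on day 5 (9.75%) and 7 on day 15 (8.82%). The part of any of these lists in the members' levels was not tested.

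**Figure D4:**
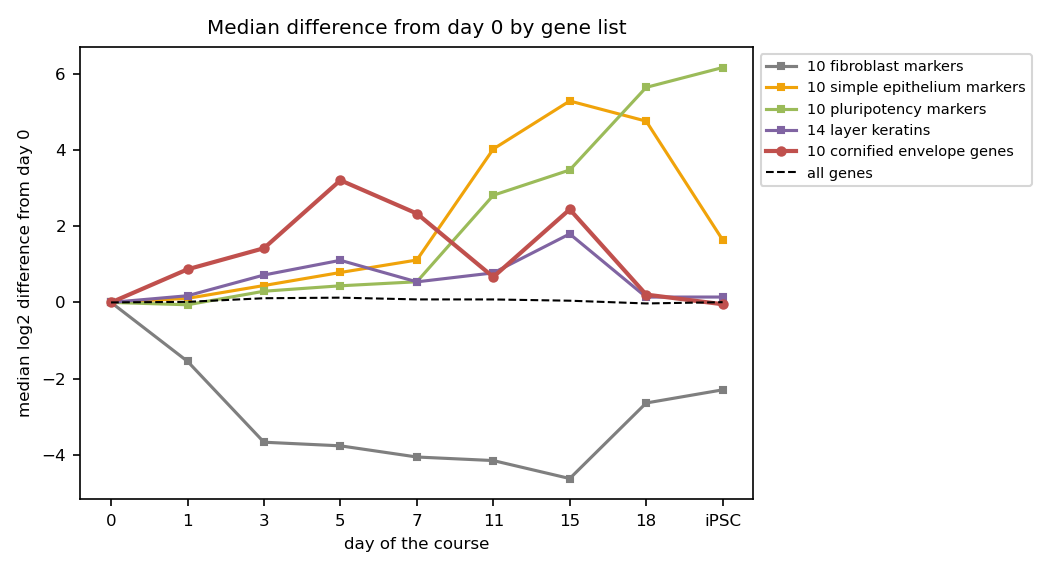
Median log2 difference from day 0 (vertical axis) of the 10 cornified envelope genes, of 3 marker lists of 10 genes, of 14 layer keratins and of all genes (dashed) over the groups (horizontal axis). The members are at 3.21 on day 5, 0.67 on day 11 and 2.44 on day 15, while the simple epithelium markers are at 0.79, 4.03 and 5.29.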

How the data were processed

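Total RNA of 18 samples was hybridised to Affymetrix arrays. The authors deposited log2 expression values made with RMA, per the submitters' processing notes, which corrects background, quantile normalizes and summarises probes, and a shift common to most genes is therefore hidden. The RMA version, genome build and chip definition were each not given in the sources used here. The 29643 probe sets were matched by RefSeq accession to a GRCm38.p6 gene table: 27256 had 1 symbol and 2387 none, giving 20229 genes, each by its probe set with the highest mean. Genes were tested with limma 3.58.1 in R 4.3.3, with 1 mean for each of 9 groups over all 18 arrays (9 residual degrees of freedom, prior 4.25), Benjamini-Hochberg adjustment over all genes within a comparison, and calls at an adjusted p under 0.05 and a log2 difference of at least 1. The number of arrays limits precision: the median SE of a difference was 0.0976. Simulated data with 200 of 20229 genes changed by 1.5 between day 5 and day 0 gave 99% recovered and 0 false calls. The simulated noise was independent and normal, with the model's own spread per gene, equal in all groups. It therefore checks that the code runs correctly, and does not cover the larger spread on day 18 or replicates that are only technical.

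Members and gene lists were chosen with earlier results of these data known. Named genes are the members, up to 4 called genes per list with the largest difference from day 0 and no overlap of arrays, a fixed set of barrier genes, and the 5 genes most like each member. Others were named after their values were seen (Cnfn, Lce1a2, Lce1b, Klk11, Lipm and Pkp3). Alternatives covered normalization, probe sets, low levels, model settings, the replicate number as a block, the day 18 arrays, the fold threshold and each array left out. Sprr2a1, Sprr2a2, Sprr2a3, Flg and Cd68 were not analysed here, and neither was the promoter of Crct1.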

Additional observations from a re-analysis of the deposited data

How the results depend on the processing

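No result changed direction under any alternative run. Counts moved by over 1.5 times only when the minimum fold change was dropped, which by construction adds smaller differences. Related genes higher than on day 0 were then 22 (day 1), 39 (day 3), 64 (day 5), 45 (day 7), 28 (day 11), 19 (day 18) and 15 (iPSC), in place of 9, 19, 39, 19, 15, 8 and 5. From day 15 to day 18 there were 35 lower and 2 higher, in place of 21 and 0. Changes between neighbouring groups were 37 from day 1 to day 3, 46 from day 3 to day 5, 46 from day 5 to day 7, 38 from day 7 to day 11, 27 from day 11 to day 15 and 18 from day 18 to iPSC, in place of 15, 14, 12, 13, 13 and 7. On day 15 against day 5, a comparison added after the data were seen, 39 were lower and 22 higher, in place of 15 and 13. Barrier regulators changed were 26 on day 5 and 26 on day 15 (10 and 16), Ly6 family genes 8 and 9 (4 and 5), and S100 genes 10 on day 5 (2). With each array left out in turn, the related genes higher on day 5 numbered 38 to 40 and on day 15 25 to 27, and the members' median from day 15 to day 18 ranged from -1.82 to -1.48. Pairing by replicate number was looked at through the correlation of deviations from the group mean. Over 36 pairs of groups it ran from -0.19 to 0.15 (median 0.02), with 6 pairs over 0.1. Since replicate numbers may be arbitrary, whether groups shared cultures or batches cannot be told from these values. A fit with the replicate number as a block gave 39 related genes higher on day 5 and 27 on day 15. It moved no count by over 1.5 times and ended no call of a named gene. Array signal limits the genes near background: Lce1a1, Lce1e, Sprr1b, Sprr2b and Ivl lay under it on day 0, so their differences may be understated.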
